A study of Homo sapiens with 12 samples.

Results

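Fanconi anemia (FA) and homologous recombination genes were followed as a module of 42 listed genes, of which 39 were found by symbol among the 17508 genes of the deposited table. EME1, BRCC3 and RAD51B were not analysed here. The cells were labelled TYK-Nu (also written TYK-nu), an established line given as a high grade serous ovarian adenocarcinoma. They were grown for 24 or 72 h with 15 µM cisplatin, a platinum drug that crosslinks DNA, or with the DMSO control, in 3 libraries for each of the 4 groups. Poly(A) RNA was sequenced, and fragments in exons and in introns were counted separately for each gene. The 4 groups differ in treatment and in time in culture only as far as the labels state, and all 12 libraries come from this line. The labels call the cultures triplicates and say nothing more on their origin. Tests that use replicates thus set a difference against the spread between these libraries only. Logistic regression, used for the exon to intron ratio, does not use that spread.

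The FA pathway repairs DNA interstrand crosslinks. A core complex of FANC proteins carries the ubiquitin ligase FANCL, which works with the conjugating enzyme UBE2T to put a single ubiquitin on FANCD2 and FANCI, and nucleases recruited to the marked pair then unhook the crosslink. The broken chromatid is repaired by homologous recombination, in which ends are resected, a homologous template is found with the help of BRCA2 and PALB2, and helicases and nucleases resolve the joined molecules. Many of these genes are expressed most in cycling cells, where a sister chromatid can serve as template.

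The exon and intron counts summed to between 18526830 and 68753262 per library, and levels are given as CPM, the counts scaled by each library's effective size to a common total. Exons and introns were scaled separately, and levels are compared between groups for a gene and not between genes, because the lengths that were counted are not given in the sources used here. Of the 39 genes, 37 passed the filter on low exon counts. BARD1, the partner of BRCA1, and RMI1, a subunit of the BLM complex, had at most 1 exon count in any library and were followed by intron counts alone, where BARD1 had 20 to 88 and RMI1 15 to 53 counts. FANCF had no intron entry, and FAAP24 was too low in introns to be tested, which left 37 genes in the intron test too. Exons of 25 of the 39 genes overlap those of another annotated gene, and the strand option of the counting is not given in the sources used here, so reads of such partners cannot be told apart. As a check of the label, the 8 epithelial and serous markers in the table summed to 170 to 201.5 exon CPM per library. Of these KRT18 was at 133 to 181 exon CPM and KRT8 at 11 to 34.5, while the exon counts of PAX8 and CDH1 were at most 2 and 0 in any library. The fibroblast list summed to at most 0.255 CPM in any library. Among markers of other cells PTPRC had 0 exon counts and VWF at most 1.20 CPM, but CD68 of the leukocyte list was at 322 to 657 CPM, and the endothelial genes PECAM1 (1350 to 2491 CPM) and CDH5 (658 to 1046 CPM) were high in every group. The marker values thus go only in part with the labelled cell type, and the identity of the line was not tested further.

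The largest differences in the module lay between 24 and 72 h. In DMSO, exon counts of 26 of 37 genes fell and those of 7 rose (adjusted p under 0.05, edgeR quasi-likelihood test, Benjamini-Hochberg over 10444 genes). Over all genes tested 32.5% fell and 32.6% rose. In cisplatin 25 of 37 fell and 6 rose, against 31.5% and 32% of all genes. The median log2 change of the module was -0.43 in DMSO and -0.40 in cisplatin, beside 0.01 and 0.02 over all genes. The 2 time comparisons share no library. All 37 genes had the same sign in both, beside 89.4% of all genes, 25 fell in both and 6 rose in both, beside 27.6% of all genes in each direction. NBN fell and PALB2 rose in DMSO only by this threshold, and RAD51C, RAD51D, RAD52 and FAN1 passed in neither. The summed exon level of the 39 genes was 2031 to 2202 CPM in the 24 h DMSO libraries and 1578 to 1646 CPM at 72 h.

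**Figure D1:**
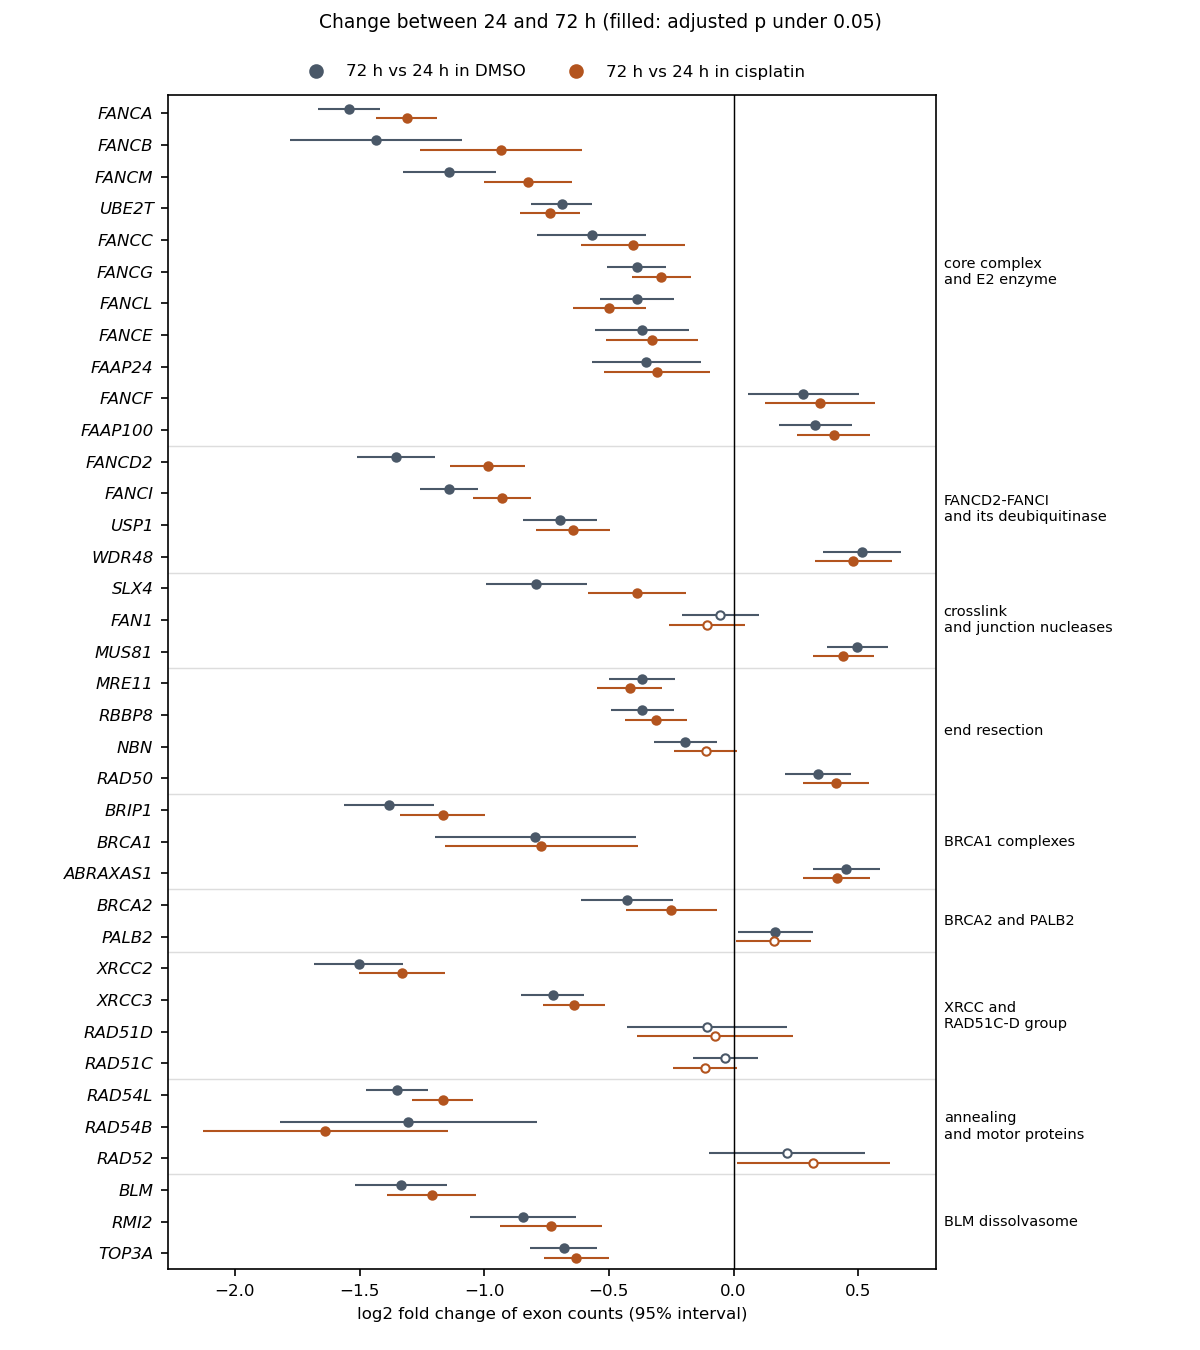
Log2 fold change of exon counts between 24 and 72 h in DMSO (grey) and in cisplatin (brown) for the 37 genes tested, grouped by role, with 95% intervals from edgeR and filled points at an adjusted p under 0.05. Most points lie left of 0 in both colours, and WDR48, MUS81, ABRAXAS1, RAD50, FAAP100 and FANCF lie right of 0 in both.

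In the core complex, 9 of 11 genes fell with time in DMSO and the same number in cisplatin. FANCA (chromosome 16, 89726683 to 89816977, GRCh38), a scaffold of the complex, had the largest fall of the 37 genes in DMSO. Its exon level was 83.8, 88.5 and 91.9 CPM at 24 h in DMSO, 82.8, 86.5 and 84.6 at 24 h in cisplatin, 29.5, 30.3 and 30.8 at 72 h in DMSO and 33.5, 33.6 and 35.5 at 72 h in cisplatin. The 72 h libraries thus lay far below those at 24 h, with a log2 change of -1.54 ± 0.06 (SE) in DMSO and -1.31 ± 0.06 in cisplatin. FANCB, which sits with FANCL in the catalytic module, was low, at 4.76, 5.37 and 5.82 CPM at 24 h in DMSO, 4.68, 4.93 and 4.44 at 24 h in cisplatin, 2.1, 1.63 and 2.1 at 72 h in DMSO and 2.53, 2.51 and 2.31 at 72 h in cisplatin. It rested on 43 to 168 exon counts per library, and its fall of -1.43 ± 0.17 and -0.93 ± 0.16 has the wider interval that such counts give.

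FANCM (chromosome 14, 45135930 to 45200890), the DNA translocase that anchors the complex on DNA, was at 19.2, 19.4 and 22.3 CPM at 24 h in DMSO, 21.1, 20.6 and 20.4 at 24 h in cisplatin, 9.59, 9.29 and 8.73 at 72 h in DMSO and 12, 11.7 and 11.3 at 72 h in cisplatin. The log2 change with time was -1.14 ± 0.09 in DMSO and -0.83 ± 0.09 in cisplatin. UBE2T, the E2 enzyme, was at 87.8, 91.0 and 91.2 CPM at 24 h in DMSO, 89.4, 82.9 and 90.2 at 24 h in cisplatin, 55.4, 58.3 and 54.0 at 72 h in DMSO and 50.8, 51.8 and 55.0 at 72 h in cisplatin. It fell by 0.69 ± 0.06 in DMSO and 0.74 ± 0.06 in cisplatin on the log2 scale. The ligase FANCL and the complex members FANCC, FANCE, FANCG and FAAP24 fell less, with log2 changes from -0.57 for FANCC to -0.35 for FAAP24 in DMSO.

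FANCF and FAAP100 went the other way from the rest of the core complex. FAAP100, which pairs with FANCB and FANCL, was at 44.2, 40.1 and 37.5 CPM at 24 h in DMSO, 40.0, 47.0 and 40.6 at 24 h in cisplatin, 52.0, 49.6 and 51.6 at 72 h in DMSO and 56.1, 57.5 and 55.6 at 72 h in cisplatin. The 72 h libraries did not overlap those at 24 h in either treatment, and the log2 change was 0.33 ± 0.07 in DMSO and 0.40 ± 0.07 in cisplatin. FANCF, an adaptor inside the complex, was at 8.21, 7.89 and 8.30 CPM at 24 h in DMSO, 6.38, 7.45 and 8.23 at 24 h in cisplatin, 9.99, 9.59 and 9.97 at 72 h in DMSO and 9.23, 9.73 and 8.88 at 72 h in cisplatin. Its log2 change was 0.28 ± 0.11 in DMSO, with an edgeR adjusted p of 0.027, and 0.35 ± 0.11 in cisplatin. The DMSO call was lost with no filter on low counts (edgeR adjusted p = 0.055) and in 4 of the fits that left out a DMSO library (0.050 to 0.083), which are those without 24 h replicate 1 or 2 and without 72 h replicate 1 or 3. The cisplatin call was lost without cisplatin 24 h replicate 1 (adjusted p = 0.056).

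FANCD2 and FANCI, the clamp that the core complex ubiquitinates, both fell. FANCD2 (chromosome 3, 10026370 to 10101932) was at 47.5, 49.9 and 54.2 CPM at 24 h in DMSO, 46.4, 53.4 and 49.7 at 24 h in cisplatin, 18.9, 19.6 and 20.5 at 72 h in DMSO and 26.6, 24.1 and 24.9 at 72 h in cisplatin. Its fall was -1.35 ± 0.08 in DMSO and -0.99 ± 0.07 in cisplatin. FANCI was at 148, 151 and 158 CPM at 24 h in DMSO, 150, 144 and 152 at 24 h in cisplatin, 67.0, 68.0 and 71.6 at 72 h in DMSO and 82.5, 73.7 and 78.3 at 72 h in cisplatin, so that both genes were lowest in the 72 h DMSO libraries. FANCI fell by 1.14 ± 0.06 in DMSO and 0.93 ± 0.06 in cisplatin. USP1, the enzyme that takes the ubiquitin off again, fell by 0.70 ± 0.07 in DMSO and 0.64 ± 0.07 in cisplatin. WDR48 (also UAF1), the protein that activates USP1, rose instead, from 32.6, 38.3 and 39.8 CPM at 24 h in DMSO and 37.0, 36.2 and 36.5 in cisplatin to 50.02, 55.9 and 52.1 at 72 h in DMSO and 55.4, 48.1 and 49.7 in cisplatin. That is a log2 change of 0.52 ± 0.08 and 0.48 ± 0.07, the highest of the 37 genes in both comparisons. The exon counts of the enzyme and of its activator thus moved in opposite directions. Exons of WDR48 overlap those of other annotated genes, whose reads cannot be told apart, and exons of USP1 do not.

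**Figure D2:**
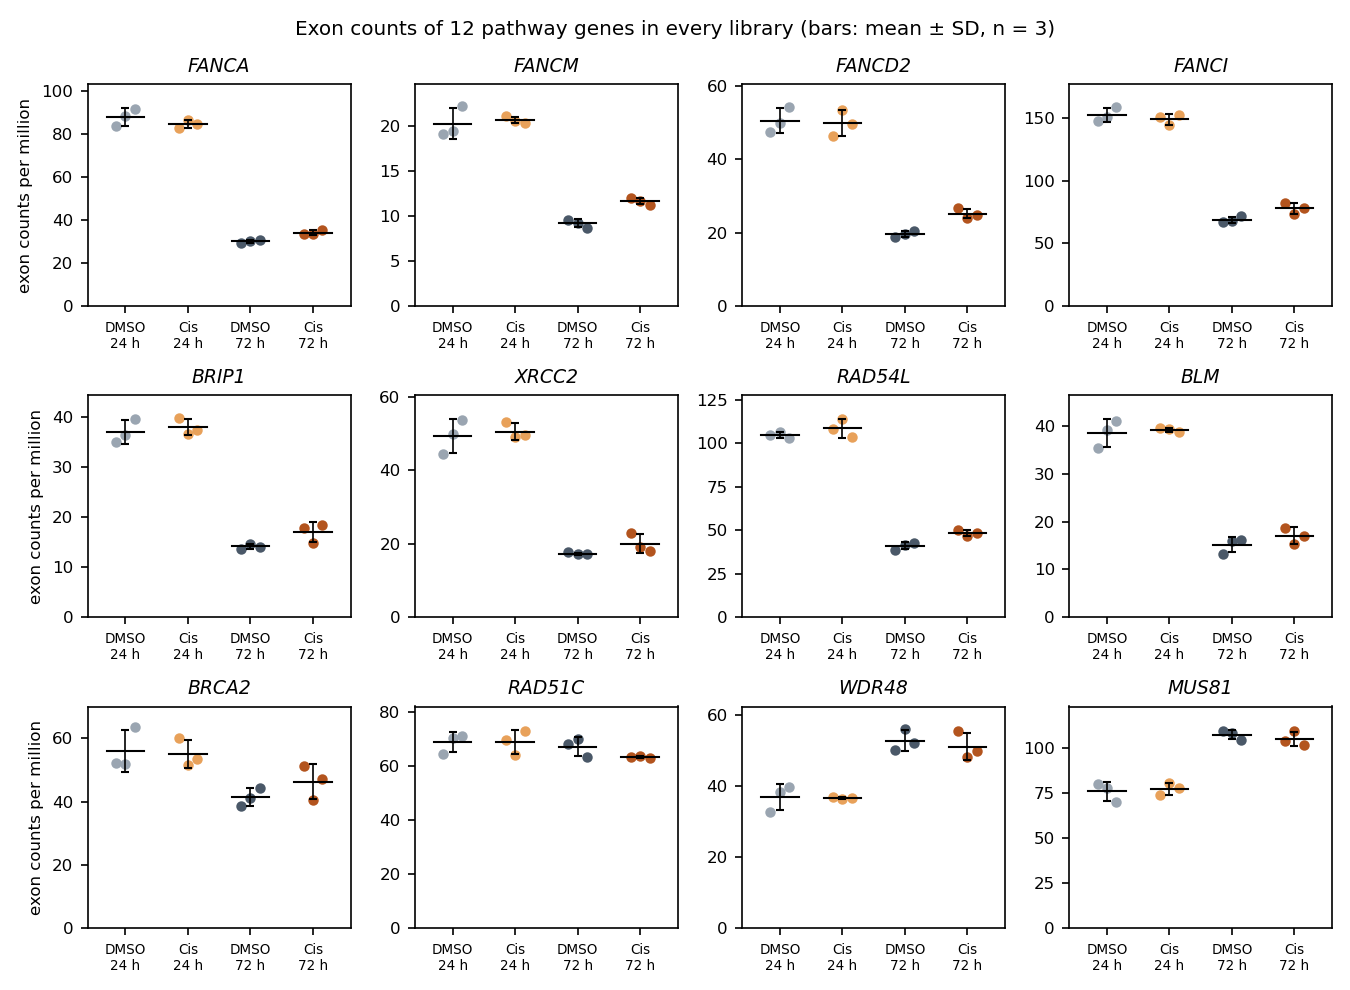
Exon level in CPM of 12 genes of the module in each of the 12 libraries, with the mean and SD of the 3 libraries of each group as bars and each axis starting at 0. FANCA, FANCM, FANCD2, FANCI, BRIP1, XRCC2, RAD54L and BLM are lower at 72 h in every library, RAD51C overlaps between times in DMSO, and WDR48 and MUS81 are higher at 72 h.

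Among the nucleases, the 3 genes in the table did 3 different things. SLX4, the scaffold that holds structure-specific nucleases, was at 21.5, 18.8 and 20.1 CPM at 24 h in DMSO, 17.2, 21.0 and 17.0 at 24 h in cisplatin, 10.8, 11.5 and 12.5 at 72 h in DMSO and 14.6, 13.5 and 14.5 at 72 h in cisplatin. It fell by 0.79 ± 0.10 in DMSO and by 0.39 ± 0.09 in cisplatin. MUS81 (chromosome 11, 65857126 to 65867653), a junction endonuclease, rose from 80.0, 77.5 and 70.0 CPM at 24 h in DMSO and 73.7, 80.4 and 77.8 in cisplatin to 109, 108 and 104 at 72 h in DMSO and 104, 109 and 102 in cisplatin, a log2 change of 0.50 ± 0.06 and 0.44 ± 0.06. FAN1, a nuclease bound by FANCD2, stayed between 35.4 and 43.1 CPM in all 12 libraries, and its change with time was -0.05 (95% interval -0.21 to 0.10) in DMSO and -0.11 (-0.26 to 0.05) in cisplatin.

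The MRE11-RAD50-NBN complex starts end resection, and its subunits did not move as a unit. MRE11, the nuclease, fell by 0.37 ± 0.06 in DMSO and 0.42 ± 0.06 in cisplatin, and RBBP8 (also CtIP), its cofactor, by 0.37 ± 0.06 and 0.31 ± 0.06. RAD50, the ATPase of the complex, was at 177, 185 and 202 CPM at 24 h in DMSO, 192, 172 and 170 at 24 h in cisplatin, 219, 247 and 246 at 72 h in DMSO and 246, 222 and 241 at 72 h in cisplatin. It rose by 0.34 ± 0.06 in DMSO and 0.41 ± 0.06 in cisplatin, with no overlap between times. NBN fell by 0.19 ± 0.06 in DMSO, a call lost without DMSO 24 h replicate 3 (-0.15, edgeR adjusted p = 0.052), and its value in cisplatin was -0.11 ± 0.06 (edgeR adjusted p = 0.12).

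Of the BRCA1 complexes, BRIP1 (also FANCJ; chromosome 17, 61679139 to 61863559), a helicase bound by BRCA1, was at 34.9, 36.4 and 39.6 CPM at 24 h in DMSO, 39.7, 36.6 and 37.4 at 24 h in cisplatin, 13.6, 14.7 and 14.1 at 72 h in DMSO and 17.9, 14.7 and 18.3 at 72 h in cisplatin. Its log2 change was -1.38 ± 0.09 in DMSO and -1.17 ± 0.08 in cisplatin. BRCA1 itself had 45 to 120 exon counts per library, fewer than its intron counts in each library, and was at 2.99, 2.93 and 4.26 CPM at 24 h in DMSO, 3.54, 3.20 and 3.09 at 24 h in cisplatin, 2.1, 1.71 and 1.96 at 72 h in DMSO and 2.06, 1.87 and 1.81 at 72 h in cisplatin. The fall was -0.79 ± 0.20 in DMSO and -0.77 ± 0.19 in cisplatin, and its intron counts fell by 0.64 ± 0.19 and 0.63 ± 0.17. The intron calls were lost without DMSO 72 h replicate 3 (-0.52, edgeR adjusted p = 0.054) and without cisplatin 72 h replicate 2 (-0.47, adjusted p = 0.068). ABRAXAS1, the scaffold of the BRCA1-A complex that limits resection, rose from 35.6, 34.97 and 35.8 CPM at 24 h in DMSO and 36.1, 31.8 and 35.2 in cisplatin to 48.0, 50.1 and 47.4 at 72 h in DMSO and 46.2, 46.3 and 44.2 in cisplatin, a change of 0.45 ± 0.06 and 0.41 ± 0.06. BARD1, which had no usable exon counts, fell in introns by 1.14 ± 0.27 in DMSO and 0.99 ± 0.25 in cisplatin.

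BRCA2 and PALB2 bind each other and act together after resection, and BRCA2 fell in both treatments. BRCA2 was at 52.4, 51.9 and 63.6 CPM at 24 h in DMSO, 60.1, 51.6 and 53.5 at 24 h in cisplatin, 38.6, 41.2 and 44.3 at 72 h in DMSO and 51.4, 40.6 and 47.1 at 72 h in cisplatin. It fell by 0.43 ± 0.09 in DMSO and by 0.25 ± 0.09 in cisplatin (edgeR adjusted p = 0.00021 and 0.016). The call in cisplatin was lost without cisplatin 72 h replicate 2 (-0.16, edgeR adjusted p = 0.136) and without cisplatin 24 h replicate 1 (-0.18, adjusted p = 0.108). PALB2 had a log2 change of 0.17 ± 0.07 in DMSO and 0.16 ± 0.07 in cisplatin, with edgeR adjusted p-values of 0.048 and 0.055, on either side of the threshold. The DMSO call of PALB2 was lost with RLE scaling, no filter, the replicate block and DESeq2 (adjusted p = 0.051 to 0.062), and without DMSO 24 h replicate 1 or 2 or DMSO 72 h replicate 2 or 3 (0.106 to 0.219).

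XRCC2, XRCC3, RAD51C and RAD51D are subunits of complexes that act in homologous recombination, and XRCC2 and XRCC3 fell while RAD51C and RAD51D did not pass the test. XRCC2 (chromosome 7, 152644776 to 152676193) was at 44.4, 49.7 and 53.6 CPM at 24 h in DMSO, 53.1, 48.9 and 49.5 at 24 h in cisplatin, 17.6, 17.2 and 17.2 at 72 h in DMSO and 22.9, 19.0 and 18.1 at 72 h in cisplatin, a fall of -1.50 ± 0.09 and -1.33 ± 0.08. XRCC3 fell by 0.73 ± 0.06 in DMSO and 0.64 ± 0.06 in cisplatin. RAD51C (chromosome 17, 58692573 to 58735611), a subunit shared by both complexes, was at 64.5, 70.5 and 71.2 CPM at 24 h in DMSO, 69.5, 64.0 and 72.8 at 24 h in cisplatin, 68.3, 70.1 and 63.4 at 72 h in DMSO and 63.4, 63.8 and 62.9 at 72 h in cisplatin. Its change was -0.03 (95% interval -0.16 to 0.10) in DMSO and -0.12 (-0.24 to 0.01) in cisplatin, so that a fall of the size seen for XRCC2 lies outside the intervals. RAD51D, at 84 to 359 exon counts, had a change of -0.11 ± 0.15 and -0.07 ± 0.15.

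RAD54L and RAD54B are motor proteins that move along DNA, and both fell, while RAD52, an annealing protein, did not pass the test. RAD54L was at 105, 106 and 103 CPM at 24 h in DMSO, 108, 114 and 104 at 24 h in cisplatin, 38.8, 41.5 and 42.9 at 72 h in DMSO and 50.1, 46.6 and 48.8 at 72 h in cisplatin. This is a log2 change of -1.35 ± 0.06 in DMSO and -1.17 ± 0.06 in cisplatin. RAD54B was at 2.46, 3.46 and 4.26 CPM at 24 h in DMSO, 3.93, 3.46 and 3.62 at 24 h in cisplatin, 1.94, 1.36 and 0.909 at 72 h in DMSO and 1.23, 1.06 and 1.27 at 72 h in cisplatin, from 36 to 118 exon counts, a change of -1.30 ± 0.25 and -1.64 ± 0.24. RAD52 had a value of 0.22 ± 0.15 in DMSO and 0.32 ± 0.15 in cisplatin (edgeR adjusted p = 0.22 and 0.064).

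The BLM dissolvasome separates double Holliday junctions without exchange, and its 3 genes tested in exons all fell. BLM, its helicase, was at 35.3, 39.1 and 41.0 CPM at 24 h in DMSO, 39.6, 39.3 and 38.8 at 24 h in cisplatin, 13.3, 16.0 and 16.2 at 72 h in DMSO and 18.8, 15.2 and 17.0 at 72 h in cisplatin, a change of -1.33 ± 0.09 and -1.21 ± 0.09. TOP3A, its topoisomerase, was at 85.2, 79.5 and 77.1 CPM at 24 h in DMSO, 79.9, 85.5 and 87.7 at 24 h in cisplatin, 51.4, 47.0 and 52.4 at 72 h in DMSO and 57.5, 52.99 and 52.8 at 72 h in cisplatin. The falls of TOP3A (0.68 ± 0.06 and 0.63 ± 0.06) and of RMI2, a structural subunit (0.85 ± 0.10 and 0.73 ± 0.10), were smaller than that of BLM on the log2 scale in both comparisons, a difference between genes that was not tested. RMI1, followed by introns alone, overlapped between times in DMSO, with means of 12.1 intron CPM at 24 h and 11.6 at 72 h. In cisplatin it was called lower, from a mean of 14.7 to 8.22 intron CPM. That call was lost with DESeq2 (adjusted p = 0.071). It was also lost in edgeR without cisplatin 24 h replicate 2 or 72 h replicate 1 or 2 (adjusted p = 0.089 to 0.288).

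Promoter sequence was read for 35 of the 39 genes from RefSeq (GRCh38.p14), as the 250 bases before the annotated start. FANCI, NBN, RAD54B and RMI2 are named only. The letters of 3 elements of cell cycle genes were searched on both strands: the E2F motif (TTTCCCGC, TTTGGCGC, TTTCGCGC or TTTGCCGC), the CHR element (TTTGAA or TTCGAA) and the CCAAT box (CCAAT). None of these strings contains another, and a gene with several windows counts where any holds the match. Of the 22 genes that fell in both time comparisons and have a window, 11 held a CCAAT box, 5 a CHR and 2 an E2F motif, which are FANCA and FANCC. Of the 11 other genes tested, 3 held a CCAAT box and 0 either of the other elements. Over all 27305 genes of the promoter table, 37.0% held a CCAAT box, 17.2% a CHR and 3.40% an E2F motif. These are matches of letters, not binding sites.

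The upstream stretches of 5 genes that fell (BLM, BRIP1, FANCM, XRCC3 and UBE2T) are shown as examples that hold 2 or more of these matches, and those of RAD51C (not called) and FAAP100 (rose) because they hold none. They are picked examples, and other genes went the other way. FANCF and MUS81, which rose in both time comparisons, held 2 and 1 CCAAT boxes, and FANCD2 and XRCC2, which fell, held no match. Each is the longest part of the window that lies outside annotated exons, written 5′ to 3′ on the strand of the gene, with matches in capitals. They are chr15:90717142-90717345 (plus strand) for BLM, chr17:61863560-61863778 (minus) for BRIP1, chr14:45135680-45135929 (plus) for FANCM, chr14:103715505-103715701 (minus) for XRCC3, chr1:202341985-202342186 (minus) for UBE2T, chr17:58692323-58692572 (plus) for RAD51C and chr17:81552377-81552603 (minus) for FAAP100. The window of FANCA lies within an annotated exon, and only its E2F match, chr16:89816804-89816827 on the minus strand, is shown with 8 bases on each side.
BLM: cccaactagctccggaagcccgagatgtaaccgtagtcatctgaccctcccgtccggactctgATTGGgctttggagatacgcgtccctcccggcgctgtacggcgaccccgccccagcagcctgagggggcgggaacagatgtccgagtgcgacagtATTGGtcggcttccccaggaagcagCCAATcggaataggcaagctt
BRIP1: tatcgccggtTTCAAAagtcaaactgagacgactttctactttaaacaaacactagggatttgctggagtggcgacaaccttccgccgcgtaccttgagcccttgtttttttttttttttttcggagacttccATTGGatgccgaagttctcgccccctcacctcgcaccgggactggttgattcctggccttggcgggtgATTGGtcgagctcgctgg
FANCM: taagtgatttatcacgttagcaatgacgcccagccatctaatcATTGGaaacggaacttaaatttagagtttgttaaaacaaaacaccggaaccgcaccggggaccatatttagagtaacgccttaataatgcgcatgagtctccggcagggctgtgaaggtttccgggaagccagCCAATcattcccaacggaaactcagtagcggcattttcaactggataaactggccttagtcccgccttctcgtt
XRCC3: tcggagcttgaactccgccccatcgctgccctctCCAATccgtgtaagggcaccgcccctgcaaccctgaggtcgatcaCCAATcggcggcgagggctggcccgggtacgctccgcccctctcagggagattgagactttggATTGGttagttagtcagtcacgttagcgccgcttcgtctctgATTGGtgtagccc
UBE2T: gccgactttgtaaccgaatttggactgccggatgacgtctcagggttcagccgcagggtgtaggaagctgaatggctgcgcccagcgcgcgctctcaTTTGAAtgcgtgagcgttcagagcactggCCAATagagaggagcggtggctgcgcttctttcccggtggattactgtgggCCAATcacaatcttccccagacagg
RAD51C: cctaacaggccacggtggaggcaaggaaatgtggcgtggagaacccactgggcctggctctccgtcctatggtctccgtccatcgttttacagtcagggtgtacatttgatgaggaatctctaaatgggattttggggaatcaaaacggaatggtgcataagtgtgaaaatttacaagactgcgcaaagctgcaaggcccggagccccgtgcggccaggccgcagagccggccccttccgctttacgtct
FAAP100: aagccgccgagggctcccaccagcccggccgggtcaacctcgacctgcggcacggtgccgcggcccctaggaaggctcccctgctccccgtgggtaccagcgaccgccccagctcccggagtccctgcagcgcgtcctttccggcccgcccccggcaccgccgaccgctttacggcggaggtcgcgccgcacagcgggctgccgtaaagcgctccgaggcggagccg
FANCA: acaccgcgGCGGCAAAgccaaacg
BLM shows 3 CCAAT boxes, XRCC3 4 and FANCM 2. BRIP1 and UBE2T each show 2 CCAAT boxes and 1 CHR.

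Other genes of the pathway came from a list of 36 of which 31 could be tested. In DMSO 18 fell and 8 rose with time, beside 32.5% and 32.6% of all genes, and in cisplatin 17 fell and 4 rose, beside 31.5% and 32%. DNA2 and EXO1, the long-range resection nucleases, fell by 1.52 ± 0.09 and 1.47 ± 0.07 in DMSO. ERCC1, a subunit of the unhooking nuclease, had a rise of 0.90 ± 0.06, ZSWIM7, a subunit of the Shu complex, one of 0.83 ± 0.19 and BABAM2, a subunit of the BRCA1-A complex, one of 0.58 ± 0.07. In cisplatin ERCC1 and BABAM2 rose too (0.72 ± 0.06 and 0.52 ± 0.07), and ZSWIM7 was at 0.33 ± 0.17 (edgeR adjusted p = 0.096). Of the proliferation genes, all 16 tested of 17 listed fell in both time comparisons, with medians of -1.30 in DMSO and -1.08 in cisplatin. Their summed level was 4955 to 5026 CPM at 24 h and 2015 to 2082 CPM at 72 h in DMSO, and 4874 to 4979 CPM at 24 h and 2168 to 2274 CPM at 72 h in cisplatin. Marker lists of other cells moved with time too. The summed level of the 3 endothelial markers went from 3434 to 3474 CPM at 24 h to 2033 to 2125 CPM at 72 h in DMSO, and from 3355 to 3479 CPM to 2165 to 2307 CPM in cisplatin, with PECAM1 and CDH5 called lower in both and VWF in neither. That of the leukocyte list, nearly all of it CD68, went from 322 to 373 CPM to 611 to 642 CPM in DMSO and from 342 to 379 CPM to 593 to 658 CPM in cisplatin. The p53 targets summed to 179 to 202 CPM at 24 h and 393 to 416 CPM at 72 h in DMSO. In cisplatin they went from 189 to 206 CPM to 360 to 394 CPM. Of the 8 tested, 2 (GDF15 and XPC) rose in both comparisons, beside 27.6% of all genes, and 0 fell. The p53 target CDKN1A was not analysed here. The part of cycling, of these markers or of p53 targets in the module's fall was not tested, and in bulk RNA fewer cycling cells and less RNA per cell cannot be told apart.

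Cisplatin was compared with DMSO at each time, to ask how the drug changed these transcripts. No gene of the module passed the threshold at either time by the edgeR test of exon counts. At 24 h 0 of 37 were called, 0% of all genes were, and 0 of 37 had even an unadjusted p under 0.05, beside 2.49% of all genes. DESeq2 called 0 of the module at 24 h. The median log2 difference of the module was -0.01, and half-widths of the 95% interval had a median of 0.15, so that differences much beyond this size were not seen for most genes. Only XRCC3 had 24 h libraries that did not overlap, with cisplatin higher by 0.04 ± 0.06, beside 6.42% of all genes with no overlap in either direction. The 6 genes with the smallest p at 24 h were FANCF (-0.15 ± 0.11), SLX4 (-0.12 ± 0.10), RAD50 (-0.08 ± 0.06), FANCB (-0.17 ± 0.15), FAN1 (0.08 ± 0.08) and TOP3A (0.06 ± 0.06). FAN1 was at 38.4, 37.1 and 43.1 CPM in DMSO and 40.8, 42.2 and 42.2 in cisplatin at that time, and at 36.3, 42.4 and 35.4 and at 39.8, 37.7 and 39.0 at 72 h. These ranges overlap at both times.

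At 72 h 0 of 37 genes passed the adjusted threshold in edgeR, where 0.0287% of all genes did, and DESeq2 called 1 (RAD54L, adjusted p = 0.025). Before adjustment 10 of 37 had a p under 0.05, all of them higher in cisplatin, beside 6.62% of all genes higher and 5.94% lower. The 10 were FANCD2, FANCM, RAD54L, FANCI, SLX4, FANCA, BRIP1, FANCG, XRCC2 and FAAP100. In 13 genes every cisplatin library exceeded every DMSO library, beside 8.85% of all genes, and in 2 (ABRAXAS1 and FANCL) every one was lower, beside 9.3%. The 13 are the same 10 with FANCB, TOP3A and XRCC3. The median log2 difference of the module was 0.05, and that of all genes 0.00.

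FANCD2 had the smallest p, with 26.6, 24.1 and 24.9 CPM in cisplatin against 18.9, 19.6 and 20.5 in DMSO, a log2 difference of 0.35 ± 0.08 with an edgeR adjusted p of 0.15. The call turned on the filter and on 1 library, since the adjusted p was 0.0042 with no filter on low counts and 0.037 without DMSO 72 h replicate 3. FANCM differed by 0.35 ± 0.09 and RAD54L by 0.24 ± 0.06, each with an adjusted p of 0.15 by the same test, and that of RAD54L was 0.045 with no filter. SLX4 differed by 0.28 ± 0.10, BRIP1 by 0.25 ± 0.09, FANCI by 0.18 ± 0.06 and FANCA by 0.18 ± 0.06, with edgeR adjusted p-values from 0.22 to 0.26. These are genes that fell with time, and they stood higher in the cisplatin libraries at 72 h than in DMSO, without passing the adjustment in the filtered fit to all libraries. Not every gene that fell did so: UBE2T was at -0.09 ± 0.06 and USP1 at 0.05 ± 0.07, and BRCA1 had no difference that its counts could show (95% interval -0.41 to 0.40). The 8 genes tested of the 12 p53 targets listed and the 16 proliferation genes gave 0 calls at either time in edgeR. The proliferation list summed to 2168 to 2274 CPM in cisplatin and 2015 to 2082 CPM in DMSO at 72 h, with no overlap. The summed level of the module's 39 genes was 1611 to 1730 and 1578 to 1646 CPM, which overlap. A higher level in cisplatin at 72 h was thus not particular to the module. MCM4, a subunit of the replicative helicase in the proliferation list, was at 0.26 ± 0.06 at 72 h with an edgeR adjusted p of 0.15. The part of the proliferation genes in the module's values was not tested.

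**Figure D3:**
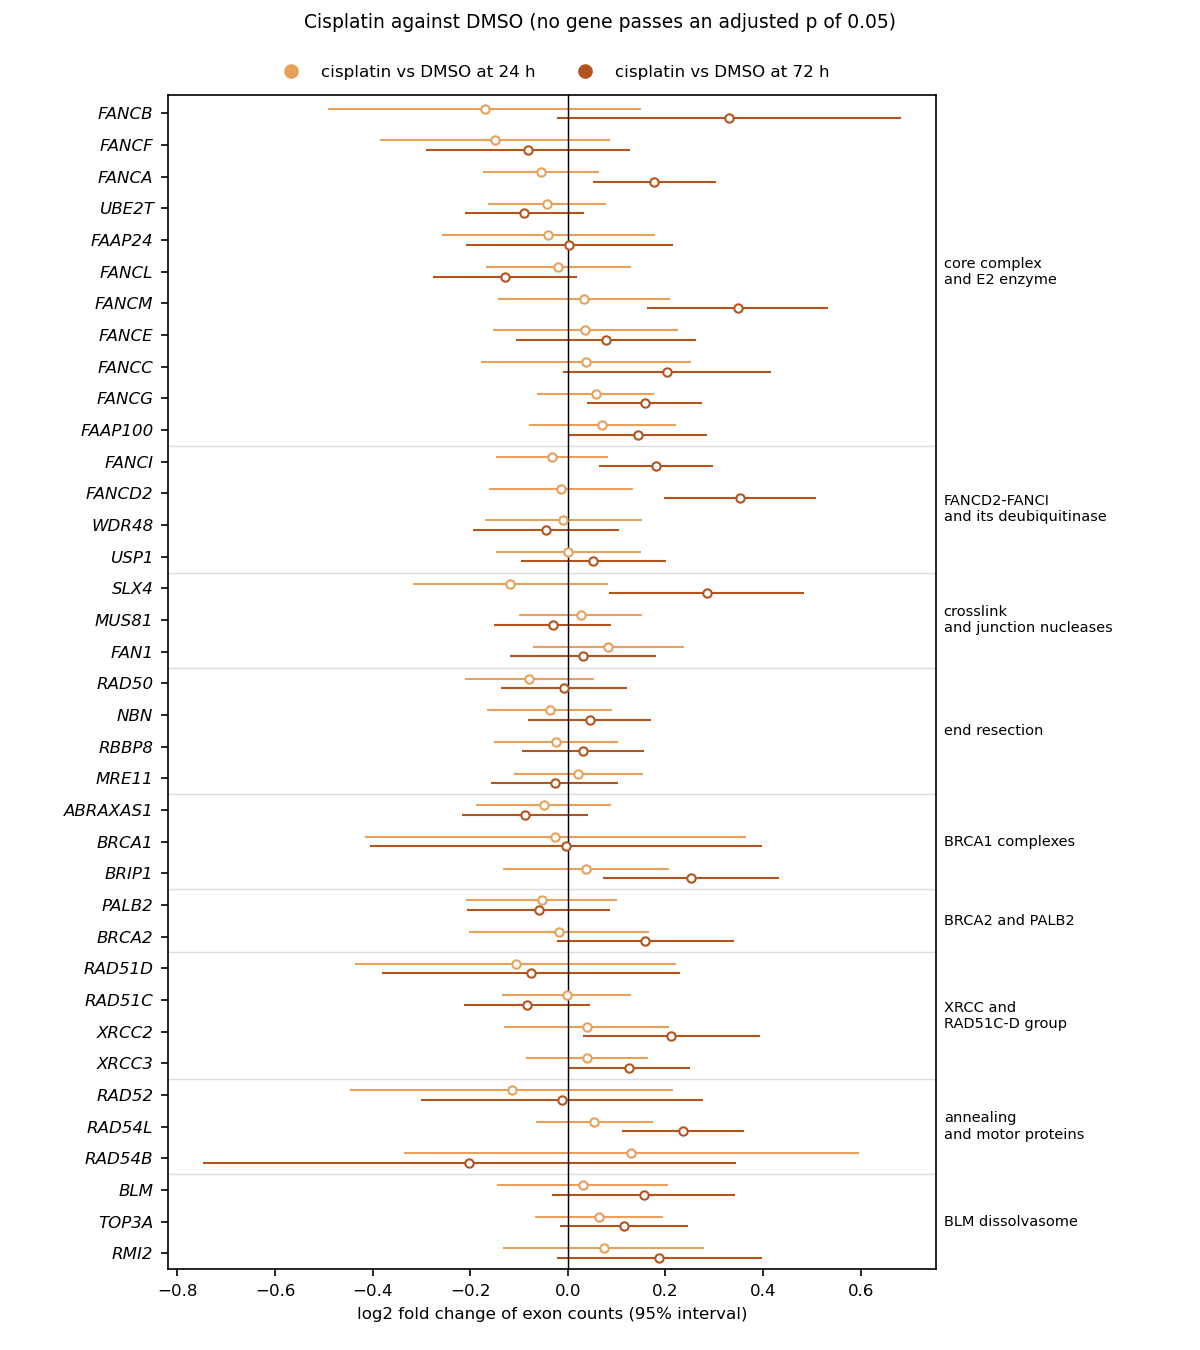
Log2 fold change of exon counts in cisplatin against DMSO at 24 h (light) and 72 h (dark) for the 37 genes tested, grouped by role, with 95% intervals from edgeR and open points throughout because none passed an adjusted p of 0.05. At 24 h every interval covers 0, and at 72 h those of FANCD2, FANCM, RAD54L, FANCI, SLX4, FANCA, BRIP1, FANCG, XRCC2 and FAAP100 lie above it.

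The difference between the 72 h and the 24 h effect of cisplatin was tested directly. No gene of the module passed (0 of 37 in edgeR, 0% of all genes, and 0 by DESeq2), and 7 of 37 had an unadjusted p under 0.05, all with a higher value at 72 h (FANCD2, SLX4, FANCA, FANCI, FANCM, RAD54L and FANCB), beside 4.82% of all genes in that direction. FANCD2 had the smallest of these, with a difference of 0.37 ± 0.10 and an adjusted p of 0.45, followed by SLX4 at 0.40 ± 0.14. The same quantity is the difference between the falls with time: FANCD2 fell by 1.35 in DMSO and by 0.99 in cisplatin, and SLX4 by 0.79 and by 0.39. Of the 25 genes that fell in both treatments 21 had the smaller fall in cisplatin, a description that rests on all 4 groups and is not a separate test. The share over all genes was not computed, so this count does not set the module apart. The proliferation genes also had a smaller median fall in cisplatin than in DMSO.

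Intron counts, which can come from unspliced RNA or from exons that the exon annotation lacks, a source that was not tested, were far fewer than exon counts for most of the module. In DMSO 18 of 37 genes fell and 5 rose with time in introns, beside 16.2% and 17.2% of all 9618 genes tested. In cisplatin 20 fell and 3 rose, beside 15.4% and 16.4%. Of 35 genes tested in both readouts, 22 passed in both in DMSO and 20 in cisplatin, and all of these had the same direction in exons and introns. Over all 9156 genes tested in both, 27.2% passed in both in DMSO and 25.5% in cisplatin, and 94.5% and 93.3% of those had the same direction, so that a shared direction was general in these libraries. Across these 35 genes Pearson's r between exon and intron change was 0.89 in DMSO and 0.84 in cisplatin, given as a description of genes measured in the same libraries.

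FANCA had 400, 340 and 326 intron CPM at 24 h in DMSO, 358, 388 and 307 at 24 h in cisplatin, 94.0, 90.5 and 115 at 72 h in DMSO and 119, 117 and 113 at 72 h in cisplatin. Its introns fell by 1.82 ± 0.11 and 1.60 ± 0.11, with no overlap of times. XRCC2 had the lowest intron change, -2.49 ± 0.37 in DMSO and -2.17 ± 0.32 in cisplatin, from 5 to 78 intron counts. RAD54L (-1.50 ± 0.17 and -1.44 ± 0.16), FANCI (-1.41 ± 0.14 and -1.05 ± 0.13) and XRCC3 (-1.13 ± 0.12 and -0.86 ± 0.11) fell in introns as they did in exons. WDR48 rose in introns from 6.36, 6.11 and 8.50 CPM at 24 h to 17.0, 20.4 and 21.6 at 72 h in DMSO, and from 10.3, 11.6 and 9.92 to 19.2, 19.4 and 17.9 in cisplatin. RAD50 (0.63 ± 0.19 and 0.92 ± 0.18) and ABRAXAS1 (0.81 ± 0.16 and 0.59 ± 0.15) rose in introns as well. The intron call of RAD50 in DMSO was lost without DMSO 72 h replicate 1 (0.42, edgeR adjusted p = 0.109), and that of WDR48 in cisplatin without cisplatin 24 h replicate 1 or 3 or 72 h replicate 2 (adjusted p = 0.051 to 0.062). Of the genes called in both readouts 5 were higher in DMSO and 3 in cisplatin, where the intron values of MUS81 (-0.09 ± 0.12) and FAAP100 (0.30 ± 0.14) did not pass. Cisplatin against DMSO gave 0 of 37 calls in introns at 24 h and at 72 h in edgeR, beside 0.0208% and 0.0416% of all genes. Unadjusted p-values under 0.05 were seen for 1 gene at 24 h and 4 at 72 h, beside 5% and 6.46%, and DESeq2 called 0 at either time.

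**Figure D4:**
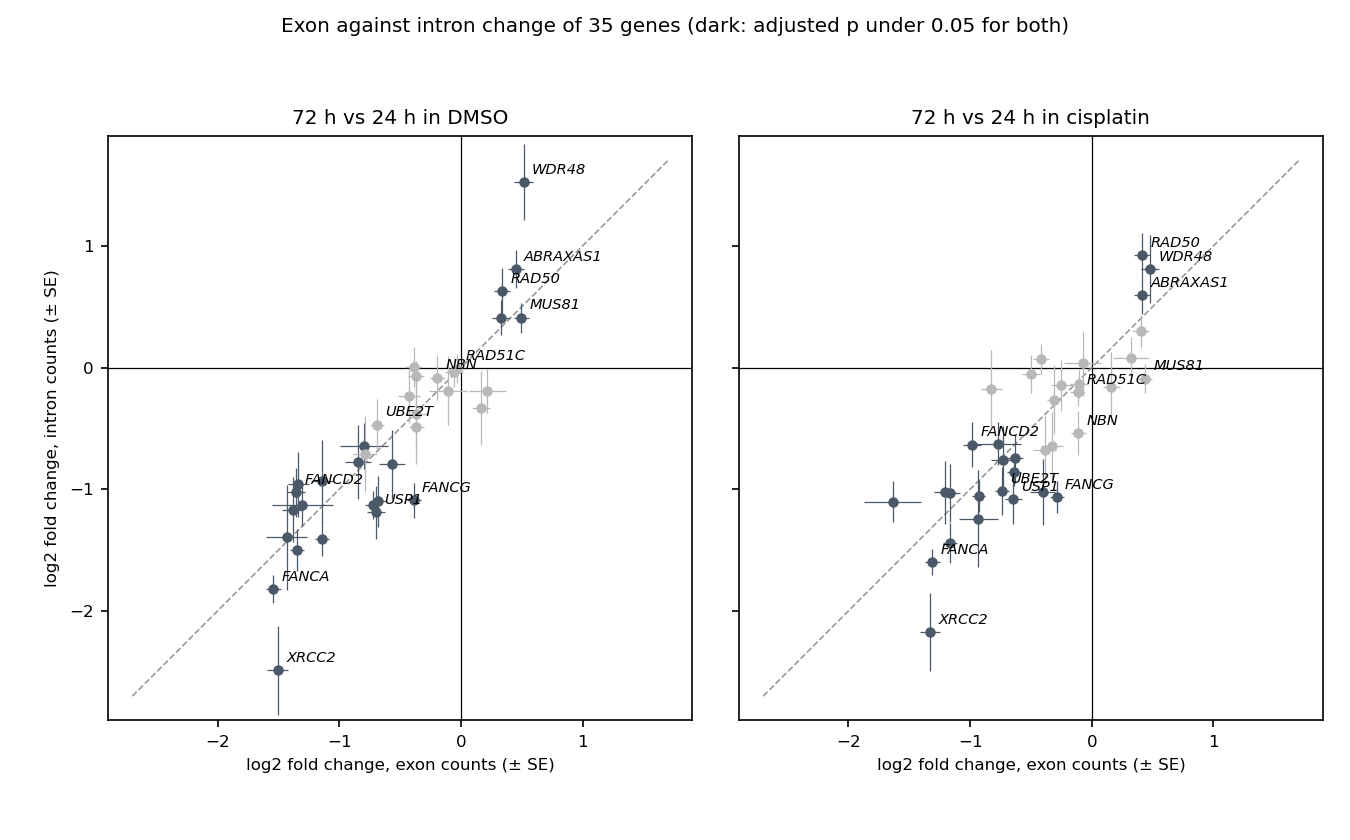
Log2 fold change between 24 and 72 h in exon counts (x axis) and intron counts (y axis) for 35 genes, in DMSO on the left and cisplatin on the right, with SE as bars, a dashed line of equal change and dark points where both readouts passed an adjusted p under 0.05. XRCC2, FANCA and FANCG lie below the line in both panels, and WDR48, RAD50 and ABRAXAS1 above 0 in both.

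The ratio of exon to intron counts, which the study used for splicing and which shares the limit on the source of intron counts given above, was tested per gene by logistic regression, which treats fragments as independent and takes no account of the spread between libraries. By that test 3 of 36 genes changed with cisplatin at 24 h, all with a lower ratio (MUS81, FANCA and FANCG), beside 11.5% of all genes. At 72 h 3 of 36 changed (NBN higher, FANCL and RAD50 lower), beside 11.4%. A ratio test in edgeR that uses the spread between libraries called 0 of 35 genes at both times, beside 0% and 0.0213% of all genes. With time, logistic regression called 13 of 36 in DMSO and 19 of 36 in cisplatin, beside 33.7% and 40.6% of all genes. The edgeR ratio test called 3 of 35 and 4 of 35, beside 11.5% and 11.9%.

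FANCG, a core complex member, was called by the edgeR ratio test in both treatments. The quasi-binomial model, which also allows for spread between libraries, called 0 genes of the module with time in either treatment, so this call and those that follow depend on the test. Its exon to intron ratio was 7.75, 6.88 and 6.86 at 24 h in DMSO and 5.84, 6.41 and 5.66 in cisplatin, and 11.5, 13.1 and 12.1 at 72 h in DMSO and 11.5, 10.1 and 10.8 in cisplatin. Its introns fell by 1.09 ± 0.14 in DMSO where its exons fell by 0.39 ± 0.06, so that the ratio rose by 0.77 ± 0.15. XRCC3 also rose in ratio in DMSO (0.47 ± 0.15), and WDR48 fell by 0.95 ± 0.27 there. In cisplatin the ratio rose for XRCC2 (0.97 ± 0.29), MUS81 (0.59 ± 0.13) and NBN (0.51 ± 0.17). MUS81 had a ratio of 7.27, 5.63 and 6.76 at 24 h and 10.8, 9.69 and 8.79 at 72 h in cisplatin, while in DMSO the 24 h libraries (8.18, 7.50 and 9.09) overlapped those at 72 h (9.24, 8.62 and 9.23). The test of that difference between treatments did not pass for any gene of the module (0 of 35 in the edgeR ratio test).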

How the data were processed

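Fragments were trimmed with Trim Galore 0.6.0 and aligned to GRCh38 with HISAT2 2.1.0 (the submitters' processing notes), and the authors counted them with HTSeq against exons (intersection-strict) and introns (union) built from Ensembl release 98. The deposited values are raw whole-number counts per gene and library, with replicates not pooled.

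Counts were fitted across all 12 libraries with edgeR 4.0.16 in R 4.3.3 (TMM scaling, filterByExpr, quasi-likelihood test, Benjamini-Hochberg adjustment over all genes tested, threshold 0.05). SE is the size of the log2 change divided by the root of F. The exon/intron ratio was tested by logistic regression as in the study's methods, and in edgeR with a term per library where both counts reached 10 in 3 libraries. DESeq2 1.42.0, other scalings, no filter, a replicate block, pairwise fits and each library left out were alternatives. The scripts were tested on simulated data. Gene names and positions are from GENCODE release 44 (GRCh38). Genes given library by library were chosen by size of change among those past the threshold, by smallest p for cisplatin, and as fixed anchors. The members and lists were chosen with earlier results of these data known. Some genes of the context lists are not reported here by name.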

Additional observations from a re-analysis of the deposited data

How the results depend on the processing

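The number of module genes with changed exon counts between 24 and 72 h was 33 in DMSO and 31 to 33 under the alternatives run, and 31 in cisplatin and 29 to 31. For introns it was 23 in both treatments, 18 to 24 in DMSO and 18 to 25 in cisplatin. None of the alternatives run reversed a called value. PALB2 in DMSO lost its call with DESeq2, RLE scaling, no filter, the replicate block and 4 of 6 libraries left out (log2 change 0.12 to 0.17). With libraries left out, FANCF lost its call in 4 fits in DMSO and 1 in cisplatin, NBN in 1 in DMSO, and FAAP24 and BRCA2 in 2 each in cisplatin. In introns BRCA1, RAD50, FANCC, MUS81, RMI2, FANCB, FAAP100 and FANCM lost a call in DMSO under at least 1 alternative, and BRCA1, NBN, WDR48, FANCC, RMI2, RMI1 and FANCB in cisplatin. At 72 h the count for cisplatin was 0 but 1 with DESeq2 (RAD54L), 2 with no filter on low counts (FANCD2 and RAD54L) and 0 to 1 with 1 library left out, where FANCD2 was called without DMSO 72 h replicate 3 (log2 difference 0.39, adjusted p = 0.037). DESeq2 gave an adjusted p to 16 of the 39 genes there. Counts for cisplatin at 24 h and for the difference between times were 0 throughout in exons, and so were cisplatin's counts in introns.

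The ratio test depended most on the tool. The count by logistic regression was 3 at 24 h, 3 at 72 h, 13 with time in DMSO and 19 with time in cisplatin. The edgeR ratio test gave 0, 0, 3 and 4, and a quasi-binomial model, which also allows for spread between libraries, gave 0 in each. Leaving out 1 library gave 1 to 5 at 24 h (1 without DMSO 24 h replicate 2, and 5 without DMSO 24 h replicate 3 or without cisplatin 24 h replicate 3). It gave 0 to 3 at 72 h (0 without DMSO 72 h replicate 3, and 1 without DMSO 72 h replicate 2 or cisplatin 72 h replicate 3), 10 to 12 with time in DMSO, and 12 to 19 with time in cisplatin (12 without cisplatin 24 h replicate 2). The causes were not tested.

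Libraries with the same replicate number showed no strong shared deviation, which cannot tell whether they were grown or handled together. Correlations of same-numbered libraries' deviations from their group means ran from -0.203 to 0.131. With the replicate block the exon counts were 32 with time in DMSO and 31 in cisplatin, and 0 for cisplatin at either time. The ratio counts with the block were 3 at 24 h, 2 at 72 h, and 12 and 18 with time. Depth limits FANCB, BRCA1 and RAD54B, which have few exon counts and intervals among the widest.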
